A study of Mus musculus with 6 samples.

Results

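The genes examined here are 10 mouse Wnt ligand genes, Wnt7b, Wnt7a, Wnt2, Wnt2b, Wnt3, Wnt4, Wnt6, Wnt9a, Wnt10a and Wnt16. They were taken from the Wnt ligands other than Wnt5a, Wnt5b and Wnt11, with earlier results of these data known. Wnt1, Wnt3a, Wnt8a, Wnt8b, Wnt9b and Wnt10b were not in the list and are counted below with other pathway genes. Every probe set whose annotation gives one of the 10 listed symbols and no other was taken. This gave 16 of the 45037 probe sets tested, for 10 of the 18193 genes measured. The series compared E12.5 (embryonic stage) pancreas of wild type control embryos with that of Hox6 null embryos, all of strain Bl6, with 3 samples of each genotype on 1 array each. Hox6 denotes the paralogous homeodomain transcription factor genes Hoxa6, Hoxb6 and Hoxc6, and the disrupted part of each gene is not stated in the labels. The organ was taken whole, so that epithelium, mesenchyme, mesothelium, vessels, nerves and blood cells contributed RNA together. The labels call the samples biological replicates but do not give the number of embryos per sample, their sex or their litters. How far the spread behind each p-value reflects embryos or litters rather than technical steps is therefore not known.

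Wnt ligands are lipid-modified secreted glycoproteins that bind a Frizzled receptor together with the co-receptors Lrp5 or Lrp6. In the canonical branch this binding stabilises beta-catenin, which then acts with Tcf and Lef factors on target genes such as Axin2 and Lef1, and several ligands of the list, Wnt4, Wnt7a and Wnt16 among them, can also act without beta-catenin. In the embryonic pancreas Wnt7b is made by the epithelium and is known for its role in the growth of pancreatic progenitors.

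Some facts of the arrays bear on all results. Among the targeted genes, Hoxb6 lay between 8.78 and 9.36 on control and between 8.25 and 8.91 on null arrays (log2 levels), and the 3 probe sets of Hoxc6 had a higher mean in null arrays, by 0.13 to 0.73. Probe sets outside the disrupted part check nothing, and Hoxa6 was not analysed here. Null replicate 3 stood apart from the other null arrays: its Pearson correlation over all probe sets was 0.990 with each control array and 0.980 and 0.985 with null replicates 1 and 2. On that array Sox2, a gene of stomach epithelium and of neural cells, was at 5.40 (2.54 to 3.12 elsewhere), the neuronal gene Tubb3 at 8.17 (5.81 to 6.62 elsewhere) and Barx1, a gene of stomach mesenchyme, at 10.70 (9.31 to 10.02 elsewhere), and their part in the results was not tested. The sex marker Xist was at 11.18 and 10.68 in control replicates 1 and 2, at 6.87 in null replicate 1 and between 3.87 and 4.13 on the other 3 arrays. The pancreatic progenitor markers were present on every array, with a mean level of 8.23 to 8.60 in control and 8.47 to 9.57 in null arrays. The liver genes had a mean level of 10.39 in control replicate 2 and of 8.38 to 9.12 on the other arrays. The counts of ligands and of pathway genes are given with and without null replicate 3.

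Wnt7b had a higher mean in Hox6 null pancreas, Wnt7a had a smaller difference of the same sign, and Wnt2b and Wnt9a had a lower mean. None of these differences passed the test over all probe sets. Of the 16 probe sets 0 had an adjusted p under 0.05 (limma, Benjamini-Hochberg), beside a background of 0.00222% of all probe sets, which is the 1 probe set called in the whole comparison. An unadjusted p under 0.05 was reached by 4 of the 16, beside 15.0% of all probe sets. The null and control arrays did not overlap for 5 of the 16, beside 22.0% of all probe sets. Separate groups with null arrays higher were found for 4 of the 16, beside 12.1% of all probe sets. With null arrays lower it was 1 of the 16, beside 9.89%. Those with null arrays higher were the brighter Wnt7b probe set and every Wnt7a probe set, the dimmer of these near the array background. The mean was higher in null arrays for 12 of 16 probe sets and for 57.3% of all probe sets, and the median difference was 0.09 over the 16 and 0.04 over all. Counted as genes, with the probe set of highest mean for each, 0 of 10 passed, beside 0.0715% of all genes.

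**Figure D1:**
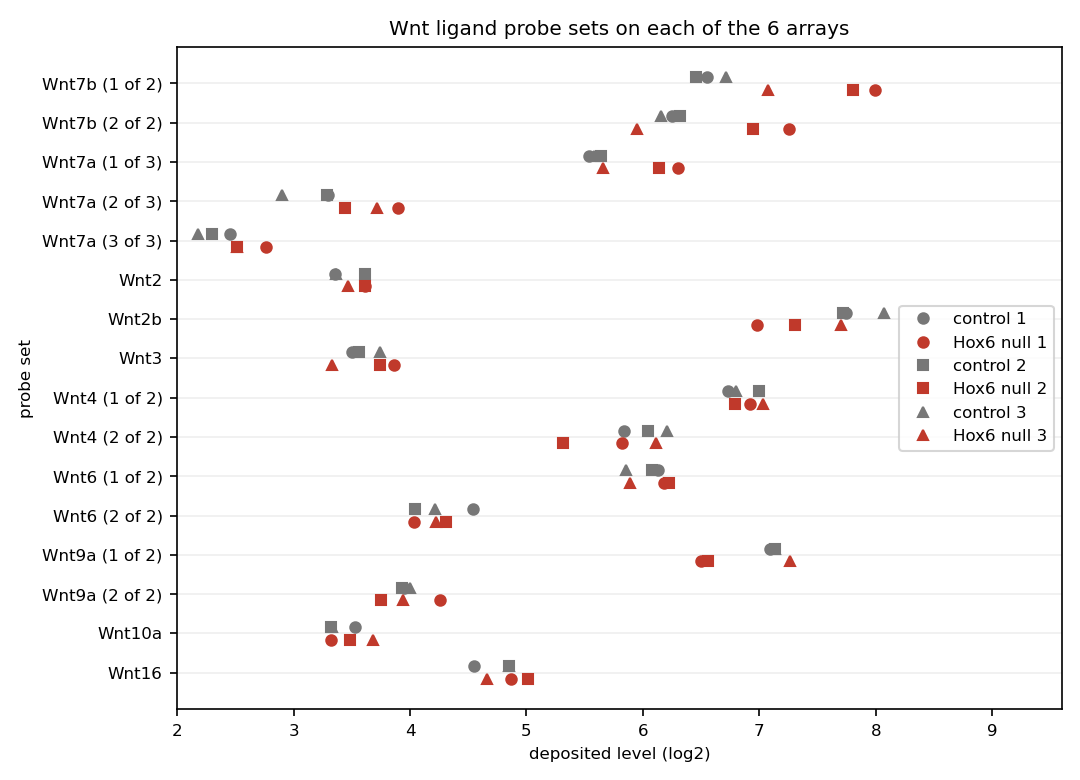
Deposited log2 level (x axis) of each of the 16 probe sets (y axis, ordered within a gene from the highest mean) on 3 control arrays in grey and 3 Hox6 null arrays in red, with circle, square and triangle for replicates 1, 2 and 3. For the brightest Wnt7b and Wnt7a probe sets the red circles and squares lie to the right of all grey points and the red triangle lies close to them.

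Wnt7b was represented by 2 probe sets. On the brighter one the log2 level was 6.55, 6.46 and 6.72 in control replicates 1, 2 and 3, and 8.0, 7.81 and 7.07 in null replicates 1, 2 and 3. All 3 null arrays were above all 3 control arrays, with null replicate 3 closest to them. Control arrays averaged 6.58 ± 0.13 (SD, n = 3) and null arrays 7.62 ± 0.49 (SD, n = 3), a difference of 1.05 ± 0.23 (SE) or 2.07-fold, with a 95% confidence interval of 0.50 to 1.59 and an adjusted p of 0.202 (limma). An exact two-sided permutation test over the 6 arrays gave p = 0.1, the smallest that 3 against 3 arrays allow. The spread among null arrays was larger than among control arrays.

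The dimmer Wnt7b probe set gave a smaller difference and overlapping groups. Its log2 level was 6.25, 6.31 and 6.16 in control replicates 1, 2 and 3, and 7.26, 6.95 and 5.95 in null replicates 1, 2 and 3. Null replicates 1 and 2 were above all control arrays and null replicate 3 was below all of them. The difference of means was 0.48 ± 0.31 (SE), with an interval of -0.24 to 1.19 and an adjusted p of 0.481 (limma). Across the 6 arrays both probe sets had a Pearson correlation of 0.84, so that they ranked null replicates 1 and 2 alike and disagreed on null replicate 3.

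Wnt7a, the closest relative of Wnt7b and a ligand known from dorsal limb patterning and the female reproductive tract, had 3 probe sets. The brightest read 5.53, 5.64 and 5.58 in control replicates 1, 2 and 3, and 6.30, 6.14 and 5.65 in null replicates 1, 2 and 3 (log2 levels). Null replicates 1 and 2 stood clear of the control arrays, whereas null replicate 3 exceeded the highest control by a margin smaller than the spread among controls. The difference was 0.45 ± 0.17 (SE), or 1.36-fold, with an interval of 0.05 to 0.85 and an adjusted p of 0.304 (limma). The remaining Wnt7a probe sets were dim, at the 15.2 and 3.2 percentiles of all probe set means. They differed by 0.52 (interval 0.14 to 0.91) and 0.29 (interval -0.01 to 0.58), in both cases with all null arrays above all control arrays. At such levels the values lie near the array background, where differences carry little weight.

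Wnt2b, a ligand that acts with Wnt2 in specification of the lung from foregut, had the opposite sign. Its single probe set read 7.74, 7.72 and 8.07 in control replicates 1, 2 and 3, and 6.98, 7.31 and 7.70 in null replicates 1, 2 and 3 (log2 levels). All null arrays were below all control arrays, but null replicate 3 lay only just below the lowest control. The difference was -0.51 ± 0.20 (SE), with an interval of -0.97 to -0.05 and an adjusted p of 0.304 (limma). Wnt2 read 3.36 to 3.62 in control and 3.47 to 3.62 in null arrays, at the 16.2 percentile of all probe set means, and its groups overlapped with a difference of 0.12 (interval -0.16 to 0.40).

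Wnt9a, which acts in joint and skeletal development, had a bright and a dim probe set. The bright one read 7.10, 7.14 and 7.14 in control replicates 1, 2 and 3, and 6.50, 6.56 and 7.27 in null replicates 1, 2 and 3 (log2 levels). The controls were tightly grouped, null replicates 1 and 2 were below them and null replicate 3 was above them. The difference of means was -0.35 ± 0.20 (SE), with an interval of -0.82 to 0.13 and an adjusted p of 0.445 (limma). The dim one, at the 21.9 percentile, gave 0.025 (interval -0.31 to 0.36).

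For the remaining ligands the groups overlapped on every probe set. Wnt4, known for its role in kidney tubules and the female gonad, read 6.73, 7.00 and 6.80 in control replicates 1, 2 and 3, and 6.92, 6.79 and 7.03 in null replicates 1, 2 and 3 on its brighter probe set (log2 levels). This is a difference of 0.08 (0.075) with an interval of -0.21 to 0.36, which leaves out the 1.05 of the brighter Wnt7b probe set. The second Wnt4 probe set gave -0.28 (interval -0.77 to 0.21), with null replicate 2 lowest at 5.32. Wnt6, a ligand of surface ectoderm and ureteric bud, gave 0.08 (interval -0.24 to 0.40) on its brighter probe set and -0.08 (interval -0.44 to 0.28) on the other. Wnt10a, which acts in teeth and hair follicles, gave 0.10 (interval -0.21 to 0.41). Wnt3, needed for gastrulation and limb outgrowth, gave 0.04 (interval -0.33 to 0.41), and Wnt16, a regulator of bone, gave 0.10 (interval -0.23 to 0.43). The intervals of Wnt3, Wnt6, Wnt10a and Wnt16 all lay within 0.5 log2 units of 0. Of the 16 probe sets, 6 had a mean below the 25th percentile of all probe sets, among them the only ones of Wnt2, Wnt3 and Wnt10a, and for these a change could be understated.

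**Figure D2:**
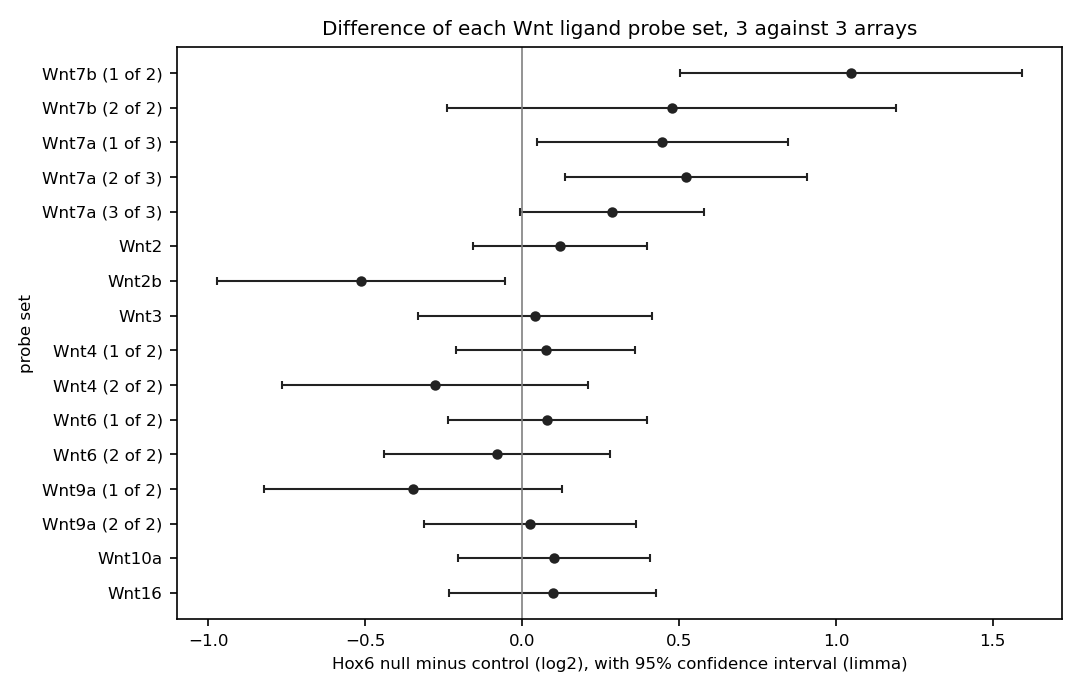
Difference of means, Hox6 null minus control (x axis, log2), for each of the 16 probe sets (y axis); points are the limma estimates from 3 against 3 arrays and bars their 95% confidence intervals. The brighter Wnt7b probe set lies farthest from 0, at 1.05, and the intervals of the dim ligands span 0 except for 1 dim Wnt7a probe set.

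Null replicates 1 and 2 were outside the control range for more ligand probe sets than null replicate 3, in the same order as over all probe sets. Null replicate 1 was outside the range of the controls for 14 of 16 probe sets, beside 71.9% of all probe sets. Null replicate 2 was outside it for 13 of 16, beside 68.9%, and null replicate 3 for 10 of 16, beside 61.8%. Relative to the control mean, null replicates 1, 2 and 3 were at +1.42, +1.23 and +0.50 for the brighter Wnt7b probe set, at +0.72, +0.55 and +0.07 (0.0696) for Wnt7a, at -0.86, -0.53 and -0.14 for Wnt2b and at -0.62, -0.56 and +0.14 for Wnt9a.

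Without null replicate 3, 4 of the 16 probe sets passed the test, beside 4.22% of all probe sets in the same fit. These were both Wnt7b probe sets, at 1.32 ± 0.13 (SE, adjusted p = 0.0139) and 0.86 ± 0.13 (adjusted p = 0.0259), the bright Wnt7a probe set at 0.64 (adjusted p = 0.0355) and the bright Wnt9a probe set at -0.59 (adjusted p = 0.0344), all by limma. Counted as genes, 4 of 10 passed, Wnt7b, Wnt7a, Wnt2b (-0.70, adjusted p = 0.0464) and Wnt9a, beside 8.44% of all genes. The array left out is the null array nearest to the controls, so that this fit is given for what 1 array decides and not as a subgroup. Without any other single array 0 of the 16 probe sets passed (limma), beside 0.00666% of all probe sets without control replicate 1 and 0.0% without each of the remaining arrays, and the difference of the brighter Wnt7b probe set stayed between 0.86 and 1.12.

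**Figure D3:**
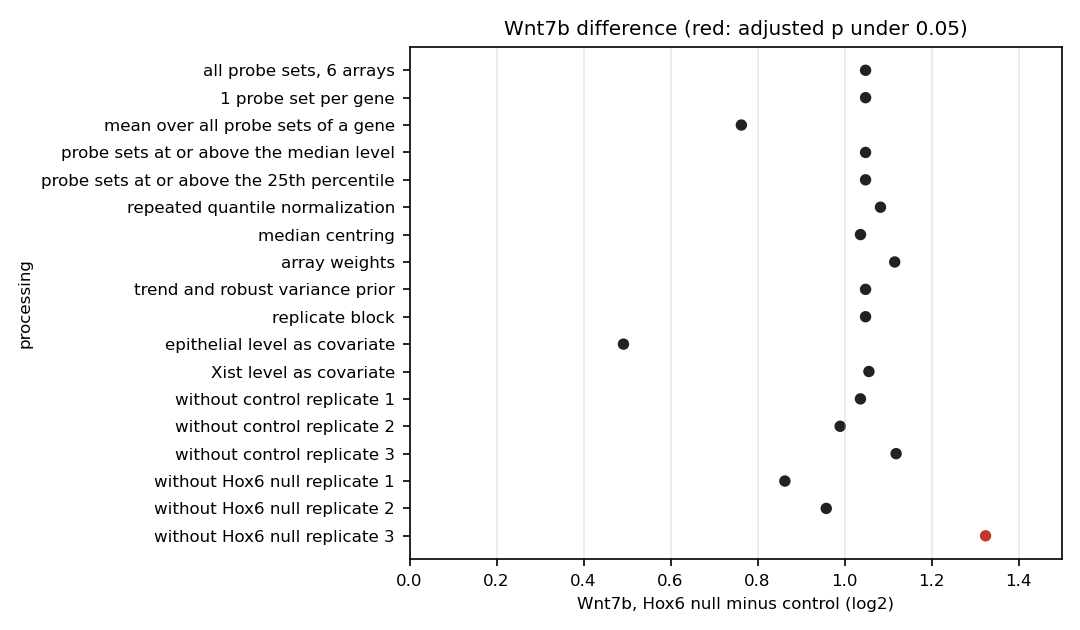
Difference of the brighter Wnt7b probe set, Hox6 null minus control (x axis, log2), under each way of processing the data (y axis); red marks an adjusted p under 0.05. The value lies between 0.86 and 1.32 except with the epithelial level as a covariate (0.49) and with the mean over both probe sets (0.76), and it passed the test without null replicate 3.

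The sequence before the start of the gene was read for the ligands other than Wnt7b with the largest departures, Wnt7a, Wnt2b and Wnt9a, because the disrupted genes encode homeodomain proteins, which bind TAAT cores. Each line gives the 250 bases before the start from RefSeq (GRCm38.p6), 5′ to 3′ on the strand of the gene. Capitals mark the GC box GGGCGG, the TATA core TATAA and the CCAAT box on either strand. Wnt7a lies at chr6:91411354-91411603 (minus strand), Wnt2b at chr3:104961710-104961959 (minus strand) and Wnt9a at chr11:59306680-59306929 (plus strand).
Wnt7a: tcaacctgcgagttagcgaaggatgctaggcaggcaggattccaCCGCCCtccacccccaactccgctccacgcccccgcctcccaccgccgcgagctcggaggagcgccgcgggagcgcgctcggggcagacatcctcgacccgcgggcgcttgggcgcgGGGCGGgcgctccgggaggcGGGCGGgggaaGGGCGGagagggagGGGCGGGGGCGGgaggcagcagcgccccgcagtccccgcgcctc
Wnt2b: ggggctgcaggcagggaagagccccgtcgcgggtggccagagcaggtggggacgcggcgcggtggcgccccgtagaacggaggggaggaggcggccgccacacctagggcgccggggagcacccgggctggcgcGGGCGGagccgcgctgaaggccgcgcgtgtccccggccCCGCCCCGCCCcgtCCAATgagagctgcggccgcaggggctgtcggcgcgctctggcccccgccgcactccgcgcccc
Wnt9a: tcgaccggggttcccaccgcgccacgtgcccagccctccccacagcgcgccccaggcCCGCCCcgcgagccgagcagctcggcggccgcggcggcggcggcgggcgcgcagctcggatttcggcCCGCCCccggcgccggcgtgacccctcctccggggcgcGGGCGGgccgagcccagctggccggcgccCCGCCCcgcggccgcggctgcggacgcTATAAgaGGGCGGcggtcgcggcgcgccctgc
The GC box had 6 matches in Wnt7a, 3 in Wnt2b and 5 in Wnt9a, where neighbouring matches can overlap, and the GC content was 77.6%, 80.8% and 84.4% beside a median of 52.4% over all promoters. Promoter entries matched 8 of the 10 genes, all but Wnt7b and Wnt10a. Of the 8 windows 7 held GGGCGG, all but that of Wnt16, beside 32.7% of the 32851 promoters of the table. TAAT was found in 0 of 8, beside 54.9% of all, and CTTTG, the core bound by Tcf and Lef factors, in 1 of 8, that of Wnt3, beside 48.6%. A search for these letters describes the windows and says nothing about binding.

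Some of the ligand genes are direct neighbours in the reference annotation (GRCm38.p6), with 0 protein-coding genes between them: Wnt6 and Wnt10a, Wnt3 and Wnt9b, and Wnt9a and Wnt3a. Wnt3a, next to Wnt9a, differed by 0.25 and Wnt9b, next to Wnt3, by 0.23 on its brightest probe set, with overlapping groups for both.

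Marker levels of several cell types differed between the arrays alongside those of the ligands. In bulk tissue fewer cells of a type and less RNA per cell cannot be told apart. The mean level of 12 general epithelial genes, among them Epcam, Cdh1 and the claudins Cldn3 and Cldn4, was 8.64, 8.57 and 8.60 in control and 9.54, 9.38 and 8.60 in null replicates 1, 2 and 3. Of these 12 genes 11 had a higher mean in null arrays, 0 passed the test, and none was below the 25th percentile. The mean level of the 8 pancreatic progenitor genes was 8.60, 8.41 and 8.23 in control replicates 1, 2 and 3. It was 9.57, 9.31 and 8.47 in null replicates 1, 2 and 3, with 8 of 8 genes higher and 0 passing. Their median difference was 0.72, beside 0.52 for the general epithelial genes. The epithelial level used below is the mean of the 12 general genes. The 11 mesenchymal genes had a mean level of 9.33 to 9.38 in control and 8.72 to 8.92 in null arrays, with 10 of 11 lower, and the 7 mesothelial genes 7.58 to 7.71 and 6.74 to 7.09, with 6 of 7 lower and Msln alone below the 25th percentile. Of all genes 0.0715% passed the test. The 8 endothelial genes had a mean level of 8.64 to 8.77 in control and 7.86 to 8.28 in null arrays, with 8 of 8 lower and 2 passing. The 7 macrophage genes were at 8.27 to 8.39 and 7.41 to 7.76, with 7 of 7 lower and 2 passing, and the 5 erythroid genes at 9.18 to 9.21 and 8.37 to 8.76, with 4 of 5 lower and 1 passing. The 8 endocrine genes were at 7.85 to 8.32 and 8.18 to 8.87, with 8 of 8 higher and 0 passing. As a description over 6 arrays that share genotype and marker shifts, the Pearson correlation with the epithelial level was 0.95 for Wnt7b, 0.98 for Wnt7a, -0.92 for Wnt2b and -0.98 for Wnt9a. With the endothelial level it was -0.97 for Wnt7b and 0.91 for Wnt2b, and with the mesothelial level -0.95 for Wnt7b and 0.87 for Wnt2b. For Wnt9a it was 0.71, 0.77 and 0.81 with the mesenchymal, mesothelial and endothelial levels, and Wnt9a was highest on null replicate 3, where these lists were below every control array.

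Relative to the general epithelial list, the groups did not overlap for the brighter Wnt7b probe set but overlapped for the dimmer one. Cldn4, a member of that list, differed by 1.17, beside a list median of 0.52. A difference above that of the list was thus not particular to Wnt7b. Relative to the pancreatic progenitor list the groups of the brighter Wnt7b probe set overlapped, with control replicate 3 above null replicate 1. It was at 6.72 beside a list mean of 8.23 in control replicate 3, and at 8.0 beside 9.57 in null replicate 1. The log2 level of this probe set minus the mean of the 12 general epithelial genes was -2.09, -2.11 and -1.88 in control and -1.54, -1.57 and -1.53 in null replicates 1, 2 and 3. All null arrays were above all control arrays and null replicate 3 lay with the other null arrays. The difference was 0.48, from -2.03 ± 0.13 (SD, n = 3) to -1.55 ± 0.02 (SD, n = 3), with an exact permutation p = 0.1, the smallest possible. With the epithelial level as a covariate the difference went from 1.05 to 0.49 ± 0.15 (SE, adjusted p = 0.332, limma). Null replicate 3, at 8.60, was the only null array within the control range of that level, 8.57 to 8.64. Differences with the covariate therefore rest largely on that array, which was at +0.50 from the control mean for this probe set. The dimmer Wnt7b probe set had overlapping groups relative to the epithelial level. It was at -2.39, -2.25 and -2.44 in control and at -2.28, -2.43 and -2.66 in null replicates 1, 2 and 3. With the covariate its difference was -0.30 (adjusted p = 0.532, limma). For the bright Wnt7a probe set the covariate left 0.07 (0.0699), for Wnt2b -0.12 and for Wnt9a 0.14, in place of 0.45, -0.51 and -0.35. The dim Wnt7a probe sets were at 0.51 and 0.18 with the covariate, in place of 0.52 and 0.29. The part of the other cell types in these differences was not tested.

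**Figure D4:**
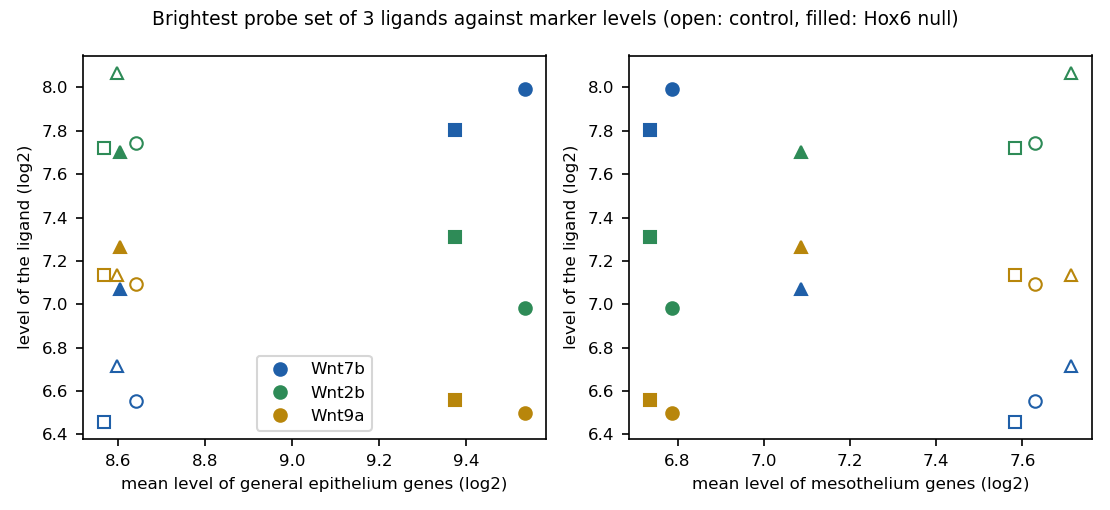
Log2 level of the brightest probe set of Wnt7b, Wnt2b and Wnt9a (y axis) against the mean log2 level of the epithelial list (left, x axis) and of the mesothelial list (right, x axis); each point is 1 array, open for control and filled for Hox6 null, with circle, square and triangle for replicates 1, 2 and 3. Null replicates 1 and 2 lie at epithelial levels of 9.54 and 9.38, while null replicate 3 lies at 8.60 among the controls and has a Wnt7b level of 7.07, above all 3 of them.

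The genes most like Wnt7b in their levels across the arrays were sought among 925 genes of at least median level and a range of at least 1 log2 unit. The 5 closest were Adgrg1, an adhesion G protein-coupled receptor (Pearson r = 0.994), the kinase gene Sgk2 (0.991), the tight junction gene Cldn4 (0.988), the histone gene H3f3b (0.988) and the acyltransferase gene Mboat1 (0.986), each over 6 arrays. Of the 925 genes 156 had r above 0.9, so that the pattern is a common one on these arrays. Cldn4, a member of the epithelial list, read 6.25, 6.04 and 6.47 in control and 8.07, 7.54 and 6.69 in null replicates 1, 2 and 3 (log2 levels), with the same order of null arrays as Wnt7b.

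Among other genes of the pathway, 0 of 47 measured passed the test, beside 0.0715% of all genes, and the means were higher for 28 and lower for 19. The groups did not overlap for 19 of 47, beside 23.8% of all genes. An unadjusted p under 0.05 together with separate groups was found for 16 of 47, 10 higher and 6 lower in null arrays, beside 15.0% of all genes. The median difference was 0.04 over the 47 (0.0415) and 0.03 over all genes (0.0331).

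Of the 9 ligands outside the list, 6 had a higher and 3 a lower mean. Wnt5a, a ligand that acts largely without beta-catenin, read 9.15, 8.93 and 9.53 in control and 8.52, 8.64 and 8.50 in null replicates 1, 2 and 3 (log2 levels). Its difference was -0.65 ± 0.16 (SE, adjusted p = 0.170, limma, all genes). Wnt5b, its closest relative, read 8.56, 8.42 and 8.87 in control and 7.03, 7.51 and 8.26 in null replicates 1, 2 and 3. This is a difference of -1.02 ± 0.30 (SE, adjusted p = 0.204), and its second probe set gave -0.88. The null arrays were below all control arrays on these probe sets of both genes. The remaining 3 probe sets of Wnt5a gave -0.43, -0.18 and -0.31, with overlapping groups. Wnt8b, at 3.52 to 3.96 in control and 4.14 to 4.58 in null arrays, differed by 0.56 at levels near the array background.

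Of the 4 genes of ligand making, release and inactivation, 1 had separate groups, beside 23.8% of all genes. Wls, the carrier that brings lipid-modified Wnt proteins to the cell surface, read 8.40, 8.31 and 8.37 in control and 7.68, 7.73 and 8.09 in null replicates 1, 2 and 3 (log2 levels). All null arrays were below all control arrays, with a difference of -0.52 ± 0.13 (SE, adjusted p = 0.170, limma) and the same sign on 3 of 4 probe sets. Porcn, the acyltransferase that attaches the lipid, gave 0.27 (interval -0.27 to 0.80) with overlapping groups.

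Receptors and co-receptors differed in both directions. Of 10 Frizzled genes 4 had a higher and 6 a lower mean. Fzd1 differed by -0.62 ± 0.12 (SE, adjusted p = 0.144, limma), Fzd3 by 0.38 with the same sign on 5 of 6 probe sets, and Fzd5, which can act as a receptor for Wnt7b, by 0.87 ± 0.28 (SE, adjusted p = 0.221). Fzd5 read 7.18, 7.23 and 7.07 in control and 7.79, 7.58 and 8.71 in null replicates 1, 2 and 3. Null replicate 3 was thus the highest array for Fzd5 and the lowest null array for Wnt7b. Among 4 co-receptors, Reck, which with Adgra2 serves Wnt7a and Wnt7b on brain endothelium, read 8.68, 8.61 and 8.77 in control and 7.99, 8.11 and 8.29 in null replicates 1, 2 and 3. Its difference was -0.55 ± 0.11 (SE, adjusted p = 0.149, limma). The endothelial list had the same sign, and so had the mesenchymal, mesothelial, macrophage and erythroid lists. Lrp5 and Lrp6 differed by 0.31 (interval 0.07 to 0.55) and 0.18 (interval -0.04 to 0.40), with all null arrays above all control arrays in both. The second Lrp6 probe set gave 0.31 (interval 0.05 to 0.56).

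The transducers and targets of beta-catenin signalling differed in both directions. Of 10 transducers measured, 6 had a higher and 4 a lower mean, and Tcf7l2, which acts with beta-catenin on DNA, differed by 0.28 ± 0.10 (SE, adjusted p = 0.246, limma) with the same sign on 3 of 4 probe sets. Axin2, the most widely used target gene of the canonical branch, read 8.68, 8.49 and 8.65 in control and 8.43, 8.57 and 8.74 in null replicates 1, 2 and 3 (log2 levels). Its groups overlapped, with a difference of -0.03 (-0.0287) and an interval of -0.30 to 0.24, while its second probe set gave 0.20 (interval -0.08 to 0.48) with all null arrays above all control arrays. Lef1 differed by 0.003 (0.0029) with an interval of -0.39 to 0.40, and by 0.27 (interval -0.16 to 0.70) on its second probe set. Lgr5 differed by 0.01 (0.0078) with an interval of -0.28 to 0.29 and by 0.34 (interval -0.59 to 1.26) on its second probe set. Both Lgr5 probe sets were dim, at the 19.7 and 15.3 percentiles, and the second read 3.25, 3.38 and 3.16 in control and 3.96, 4.26 and 2.57 in null replicates 1, 2 and 3. The feedback ubiquitin ligase gene Znrf3 differed by 0.42 ± 0.14 (SE, adjusted p = 0.238), the cyclin gene Ccnd1 by 0.28 ± 0.11 (adjusted p = 0.268) and the antagonist gene Nkd2 by -0.35 ± 0.12 (adjusted p = 0.241), all by limma. Their other probe sets gave 0.15 for Znrf3, 0.54 and 0.34 for Ccnd1, and -0.275, -0.27 and 0.20 for Nkd2. The feedback ubiquitin ligase gene Rnf43 at 0.53 (interval -0.18 to 1.23) and the antagonist gene Dkk1 at -0.61 (interval -1.73 to 0.52), both named after their values were seen, were farther from 0 and had overlapping groups.

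**Figure D5:**
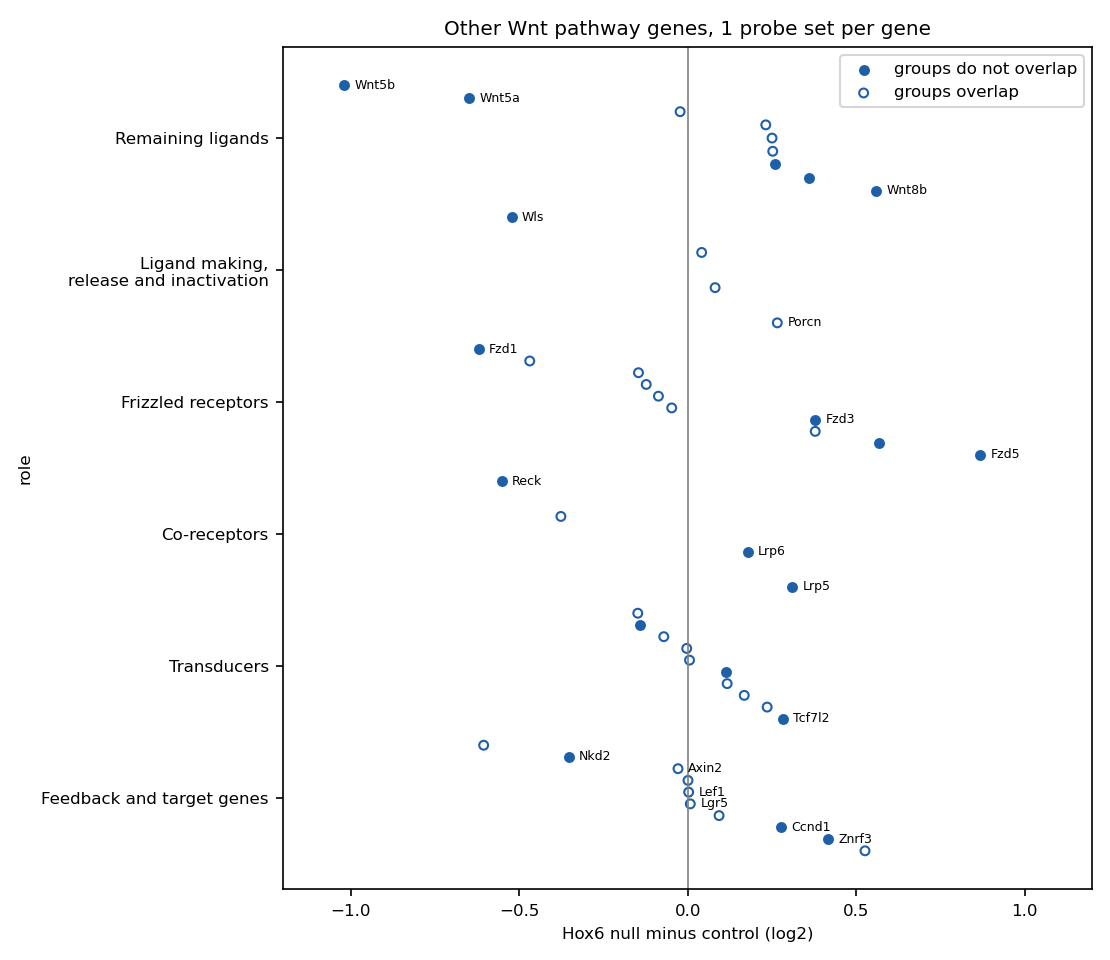
Difference of means, Hox6 null minus control (x axis, log2), of the 47 other pathway genes measured, grouped by role (y axis); each point is 1 gene on its brightest probe set, filled where the 3 null and 3 control arrays do not overlap, and named genes carry their symbol. Wnt5b, at -1.02, and Fzd5, at 0.87, lie farthest to either side, while Axin2, Lef1 and Lgr5 lie close to 0.

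Without null replicate 3, 11 of the 47 pathway genes passed (limma), beside 8.44% of all genes in that fit, among them Wnt5b (-1.35), Wls (-0.65), Fzd1 (-0.66), Reck (-0.63), Znrf3 (0.54), Rnf43 (0.89) and Fzd5, which was at 0.53 in place of 0.87. Without any other single array 0 of the 47 passed, beside 0.011% of all genes without control replicate 1 and 0.0% without each of the remaining arrays. With the epithelial level as a covariate 0 of the 47 passed, beside 0.104% of all genes. Wnt5b was then at -0.34, Wls at -0.27, Fzd3 at 0.17, Znrf3 at 0.14 and Ccnd1 at 0.11, all nearer to 0 than without it. Lrp6 was at 0.27 and Fzd5 at 1.52 (adjusted p = 0.0598, limma), both farther from 0. These values rest largely on null replicate 3, the only null array at the epithelial level of the controls. On that array Fzd5 was at 8.71, beside a control mean of 7.16.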

How the data were processed

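The deposited values are log2 expression levels per probe set on 6 Affymetrix arrays. Per the labels' protocols, RNA was amplified from 10 ng of total RNA with a NuGEN WT-Pico Ovation kit and labelled with biotin. Per the submitters' processing notes, RMA, affy and limma were used, with versions not given in the sources used here. RMA corrects background, quantile-normalizes and summarises probes, so levels are relative to the set and dim changes are understated. No detection calls were used, and 6 arrays limit the precision.

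Names of probe sets come from the platform annotation. Of 45101 probe sets, 64 array controls were left out, 34945 had 1 symbol, 932 several and 9160 none listed. Of the singly named, 34741 were found in the reference gene table with 0 symbols changed. No build is given for the arrays, and coordinates are those of the RefSeq promoter table alone.

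Genotype was the single term of a linear model on the deposited log2 values (limma 3.58.1, R 4.3.3), two-sided, with Benjamini-Hochberg adjustment over 45037 probe sets, and again over 18193 genes with the brightest probe set each. The threshold was 0.05. Errors of differences are moderated standard errors, and intervals are 95%. The fit was tested on simulated data. Permutation tests used SciPy 1.17.1.

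Named genes are all 10 ligands with all probe sets, up to 3 genes per pathway role by smallest p among those with p under 0.05 and separate groups, a fixed set (Wnt5a, Wls, Porcn, Lrp5, Lrp6, Axin2, Lef1, Lgr5), the 5 genes most like Wnt7b, the targeted Hox genes, Xist and markers. Wnt3a and Wnt9b are named as neighbours, and other genes as examples from a list. The ligands and lists were chosen with earlier results of these data known. Tcf7 was not analysed here. Alternatives changed the features, filter, normalization, array weights, variance prior, block, covariates and arrays. Array pairs shared 53 to 166 identical values, which gives no sign of an array deposited more than once.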

Additional observations from a re-analysis of the deposited data

How the results depend on the processing

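The difference of the brighter Wnt7b probe set kept its sign under all 17 alternatives and did not pass the threshold of 0.05 in 16 of them. It was 1.05 with 1 probe set per gene (adjusted p = 0.158), 1.12 with array weights (adjusted p = 0.083), 1.06 with Xist as a covariate (adjusted p = 0.432) and 0.86 to 1.32 with 1 array left out, where it passed without null replicate 3. Leaving out 1 array gave 0 to 4 ligand probe sets called, 0 to 4 ligand genes and 0 to 11 other pathway genes, and the highest counts are those without null replicate 3. The remaining alternatives gave 0 for each of these counts (limma), beside 0.0% to 0.14% of all probe sets and 0.0% to 0.407% of all genes. Whether replicate numbers pair the samples cannot be told from 3 arrays per group. Same-numbered arrays had correlations of deviations of 0.14, 0.00 (0.0049) and 0.06 (0.0619), and differently numbered arrays -0.13 to 0.05 (0.054). With the replicate number as a block Wnt7b was at 1.05 (adjusted p = 0.232, limma) with 0 ligands called.

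Of the 33 single values other than that of the brighter Wnt7b probe set, 13 changed sign somewhere, and no value of changed sign passed the threshold. With the epithelial covariate these were the dimmer Wnt7b probe set (-0.30), the brighter (0.14) and dimmer Wnt9a probe sets (-0.07, -0.0679), Wnt16 (-0.06, -0.057), the brighter Wnt6 probe set (-0.12), Wnt3 (-0.27), the dimmer Wnt4 probe set (0.04, 0.0376) and Axin2 (0.13). With repeated quantile normalization they were Wnt10a (-0.0012), Wnt3 (-0.08, -0.0772), the dimmer Wnt9a probe set (-0.08, -0.0774), Lgr5 (-0.10, -0.0983) and Axin2 (0.0095). With array weights they were the dimmer Wnt9a probe set (-0.03, -0.033) and Lgr5 (-0.05, -0.0545), and with median centring Lgr5 (-0.0039) and Lef1 (-0.0088). With the mean over probe sets they were Wnt4 (-0.10) and Axin2 (0.09, 0.0851), and with the Xist covariate Lef1 (-0.20). Leaving out 1 array gave ranges of -0.068 to 0.20 for Wnt3, -0.11 to 0.14 for the dimmer Wnt9a probe set, -0.0047 to 0.19 for Wnt16, -0.19 to 0.06 (0.0576) for the dimmer Wnt6 probe set, -0.0031 to 0.18 for the brighter Wnt6 probe set, -0.11 to 0.05 (0.047) for Axin2, -0.14 to 0.17 for Lef1 and -0.09 (-0.0927) to 0.10 for Lgr5. The cause was not tested, and the values with the epithelial covariate rest largely on null replicate 3. Signal near the array background limits Wnt2, Wnt3, Wnt10a and the dim Wnt7a and Wnt9a probe sets.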
